A study of Homo sapiens with 6 samples.

Results

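Transcription factors of the mesenchyme and the neural crest were followed in SKNMC cells that carried NFIB ΔIDR, NFIB WT or an empty vector (EV). The set was a list of 57 developmental factors given by gene symbol, and 54 of them were among the 22604 genes of the count table. TWIST2, FOXC2 and FOXF1 were not analysed here. SKNMC is an Ewing sarcoma cell line, in which the fusion protein EWS-FLI1 drives the tumour program. All 3 groups were the same line, transduced with lentivirus and selected with puromycin, and each group had 2 RNA-seq libraries. The NFIB WT cells received V5-tagged full-length NFIB, whose cDNA had been amplified from the small cell lung cancer line NCI-H446. The NFIB ΔIDR cells received the same V5-tagged factor without its intrinsically disordered region (IDR), a stretch of protein with no fixed fold. The EV cells received the expression vector alone and keep their own NFIB, as do the cells of the other groups. NFIB was therefore overexpressed in a single tumour line, on top of the endogenous gene, and the study describes its RNA-seq as done in biological duplicate.

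NFIB belongs to the nuclear factor I family, which binds DNA as a dimer and acts in the development of lung, brain and muscle. Mesenchymal and neural crest cells are migratory cells of the embryo that give rise to bone, cartilage, connective tissue, peripheral nerves and pigment cells. Their identity is set by combinations of factors from a few families: Snail, Twist and Zeb proteins repress epithelial genes, homeobox and T-box proteins give cells a position, and SOX, RUNX, PAX and AP-2 proteins select lineages. Ewing sarcoma is thought to arise from a mesenchymal or neural crest progenitor, so many of these genes are of interest in this tumour.

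The deposited values are raw counts per gene. The 6 libraries held between 6664231 and 8465572 counts, so that 1 count was worth between 0.12 and 0.15 CPM (counts scaled to a common library total) after scaling by TMM, a factor that matches the bulk of genes between libraries. Levels below are TMM-scaled CPM, and levels compared between genes are CPM per kb of gene length. NFIB itself had 2227 and 2332 CPM with NFIB ΔIDR, 969 and 1051 CPM with NFIB WT, and 176 and 145 CPM with EV. The construct and the amount of NFIB RNA cannot be told apart in this design, since NFIB counts were 2.26-fold higher with NFIB ΔIDR than with NFIB WT. The chi-square statistic of the counts per degree of freedom was 1.58 within the NFIB ΔIDR pair, 8.56 within the NFIB WT pair and 1.76 within the EV pair, so the NFIB WT libraries differed most from each other. Of 10 markers of Ewing sarcoma cells, the 9 in the table summed to 2505 and 2488 CPM with NFIB ΔIDR, 3144 and 3023 CPM with NFIB WT, and 2628 and 2646 CPM with EV. The list was split: CCND1, NPY1R, LIPI, NKX2-2 and FLI1 had their highest mean with NFIB WT, while STEAP1 and EWSR1 had their lowest there. The sum of 7 fibroblast markers was 269 and 269 CPM with NFIB ΔIDR, 345 and 360 CPM with NFIB WT, and 270 and 291 CPM with EV. These markers were split too: LUM, COL3A1 and FAP had their highest mean with NFIB WT, while PDGFRA, PDGFRB and COL1A1 had their lowest there. The sum of 5 epithelial markers was 294 and 340 CPM with NFIB ΔIDR, 185 and 263 CPM with NFIB WT, and 210 and 247 CPM with EV. Nearly all of it came from the keratin KRT18, with the adhesion protein CDH1 at 3 counts or fewer in every library. Their part in the results below was not tested. The endothelial, and the melanocyte and Schwann cell, lists summed to at most 13.9 CPM, while a leukocyte list summed to 255 to 317 CPM, nearly all of it from PTPRC, with CD3E at 2 counts or fewer. In bulk RNA, fewer cells of a kind and less RNA per cell cannot be told apart.

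Many of the factors were expressed in SKNMC cells, over a wide range of levels. With EV, 28 of the 54 averaged 10 CPM or more, 13 were between 1 and 10 CPM, and 13 were under 1 CPM. TWIST1, a basic helix-loop-helix factor of mesoderm and neural crest, was the most abundant per length, with 148 ± 4.8 CPM per kb (SD, n = 2), which placed it at percentile 98.5 of all genes. TFAP2B, an AP-2 factor of the neural crest and kidney, followed with 93.2 ± 1.9 CPM per kb. The Zeb repressor ZEB2 had 57.6 ± 1.3 CPM per kb and the Notch effector HES1 had 57.0 ± 1.9 CPM per kb, which did not differ beyond their spread. SOX11 with 40.6 ± 2.1 CPM per kb and SOX4 with 29.0 ± 1.6 CPM per kb, both SOXC factors of neural and mesenchymal progenitors, came next. The paired-related homeobox gene PRRX2 had 26.9 ± 3.9 CPM per kb and overlapped SOX4 in its spread. PAX7, a paired box factor of neural crest and muscle progenitors, had 19.1 ± 0.64 CPM per kb, PRRX1 of limb and craniofacial mesenchyme had 16.2 ± 0.082 CPM per kb, and the E protein TCF4, a dimer partner of tissue-specific bHLH factors, had 14.1 ± 0.47 CPM per kb. The plot of levels by library shows that families were mixed: the EMT (epithelial-mesenchymal transition) and homeobox families each held abundant and scarce members. Among the AP-2 factors TFAP2B was abundant, while TFAP2C was scarce and, not being tested, is not in the plot.

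**Figure D1:**
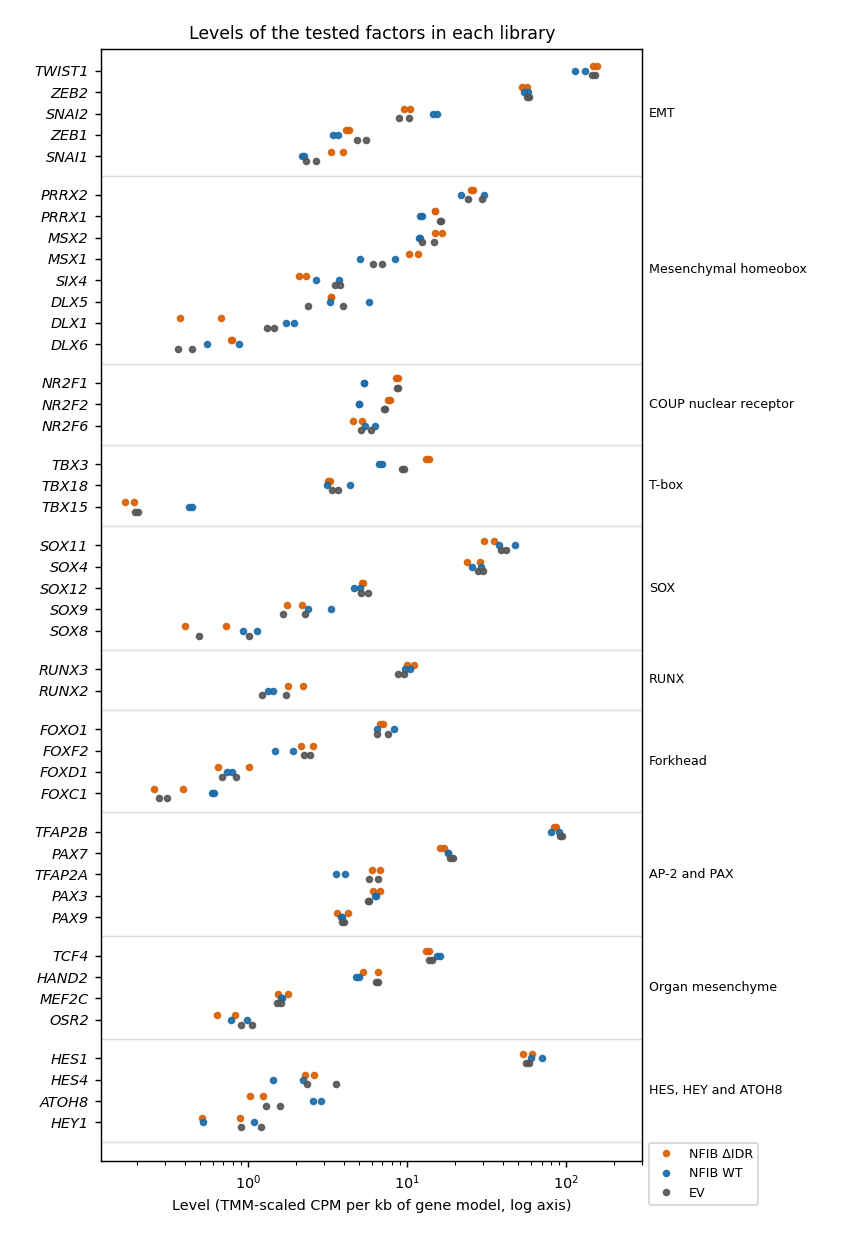
Level of each of the 43 tested factors, grouped by family, in TMM-scaled CPM per kb of gene length on a log axis. Each point is 1 library of NFIB ΔIDR, NFIB WT or EV, and TWIST1 lies highest, at 148 CPM per kb on average with EV.

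Other factors were close to the limit of detection. TBX2, RUNX1, TFAP2C, TCF21, GATA6, SIX2 and MEOX1 had 3 counts or fewer in every library, the floor used here, which corresponds to 0.36 to 0.45 CPM. DLX2, MEOX2, SOX5 and OSR1 were counted somewhat more often but did not pass the expression filter, so 11 of the 54 factors in the table were not tested. DLX2, which lies beside DLX1, had 3 and 4 counts with NFIB ΔIDR, 10 and 7 with NFIB WT, and 3 and 4 with EV. MEOX2, a homeobox gene of the somites, had 5 and 3 counts with NFIB ΔIDR, 0 and 1 with NFIB WT, and 0 and 0 with EV. These 2 values are given without a test.

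The direct comparison of the constructs, NFIB ΔIDR over NFIB WT, asks what the disordered region of NFIB changes. It moved 7 of the 43 tested factors (16.3%) at an adjusted p under 0.05, beside 10.7% of all genes tested. The factors were chosen with earlier results of these data known, so such shares, here and below, are descriptions only. With NFIB ΔIDR, TBX3, NR2F1, NR2F2 and TFAP2A were higher, 4 factors beside 5.19% of all genes, and ATOH8, DLX1 and SNAI2 were lower, 3 factors beside 5.52% of all genes. The tests used edgeR's quasi-likelihood F test on all 6 libraries with Benjamini-Hochberg adjustment over 13501 genes. The median log2 fold change of the 43 factors was 0.01, against 0.001 for all genes, with 22 factors above 0 and 21 below. TBX3 kept its call in all 11 alternatives with a fit of their own, at log2 fold changes of 0.94 to 1.01. Without NFIB ΔIDR replicate 1, NR2F1, NR2F2, TFAP2A, DLX1 and SNAI2 no longer passed, at log2 fold changes of 0.70, 0.65, 0.82, -2.28 and -0.53. Without NFIB ΔIDR replicate 2, the same 5 factors and ATOH8 no longer passed, at 0.66, 0.60, 0.65, -1.42, -0.66 and, for ATOH8, -1.13. SNAI2 also did not pass in DESeq2. The libraries of the constructs did not overlap in 15 factors that were higher (34.9%, beside 27.8% of all genes) and 12 that were lower (27.9%, beside 27.6%).

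**Figure D2:**
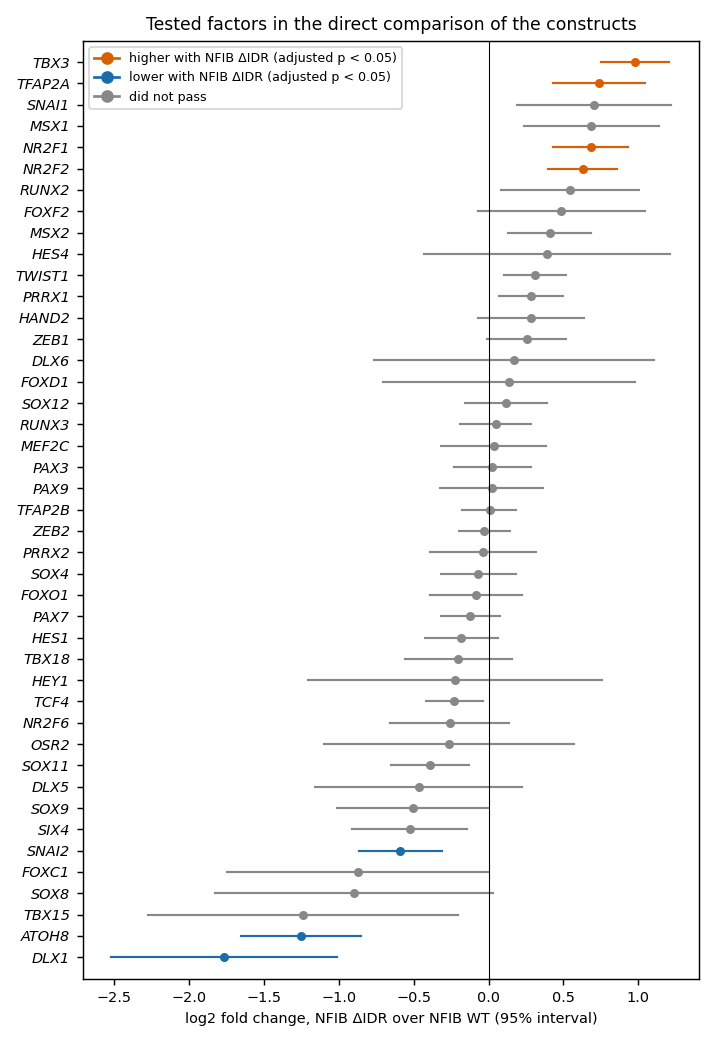
log2 fold change of NFIB ΔIDR over NFIB WT for the 43 tested factors, with the 95% interval from edgeR as a line. Factors that passed an adjusted p under 0.05 are coloured, with TBX3 at 0.98 at the top and DLX1 at -1.77 at the bottom.

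TBX3 moved most clearly. It encodes a T-box repressor needed for limb and mammary gland development and lies at chr12:115108060-115121980 of GRCh37, on the minus strand. Its level was 65.9 and 62.9 CPM with NFIB ΔIDR, 31.8 and 33.5 CPM with NFIB WT, and 44.6 and 45.9 CPM with EV. The 3 groups did not overlap, and the EV libraries lay between those of the constructs. The log2 fold change of NFIB ΔIDR over NFIB WT was 0.98 ± 0.10 (SE), a 1.97-fold difference, with an adjusted p of 0.000621 by edgeR. TBX18, which acts in somites and in the sinus node of the heart, had 19.2 and 19.9 CPM with NFIB ΔIDR, 26.4 and 18.9 CPM with NFIB WT, and 22.2 and 20.6 CPM with EV. The NFIB WT libraries overlapped those of both other groups, the NFIB ΔIDR libraries lay below those of EV, and TBX18 passed in no comparison. TBX15, a factor of limb and skull mesenchyme, was scarce, with 5 and 4 counts with NFIB ΔIDR, 10 and 12 with NFIB WT, and 5 and 6 with EV.

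The COUP nuclear receptors NR2F1 and NR2F2 were both higher with NFIB ΔIDR than with NFIB WT. They are closely related orphan receptors, of which NR2F1 is best known from neural development and NR2F2 from veins and organ mesenchyme. NR2F1 (chr5:92918928-92930317, plus strand) had 31.8 and 32.5 CPM with NFIB ΔIDR, 20.0 and 20.1 CPM with NFIB WT, and 32.5 and 32.1 CPM with EV. Its NFIB ΔIDR and EV libraries overlapped, and both NFIB WT libraries lay below them. Between the constructs the log2 fold change was 0.68 ± 0.11 (SE), with an adjusted p of 0.00524 by edgeR. NR2F2 (chr15:96869167-96883492, plus strand) had 46.5 and 48.0 CPM with NFIB ΔIDR, 30.6 and 30.5 CPM with NFIB WT, and 44.1 and 43.9 CPM with EV. Here the NFIB ΔIDR libraries lay a little above EV and the NFIB WT libraries well below it, for a log2 fold change of 0.63 ± 0.10 (SE) between the constructs and an adjusted p of 0.0049 by edgeR. The more distant relative NR2F6 had 8.25 and 9.45 CPM with NFIB ΔIDR, 9.75 and 11.3 CPM with NFIB WT, and 9.28 and 10.7 CPM with EV. Its log2 fold change was -0.26, with a 95% interval of -0.66 to 0.14.

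NR2F1 shares its locus with the antisense gene NR2F1-AS1, which averaged 16.5 CPM with NFIB ΔIDR, 10.7 CPM with NFIB WT and 15.4 CPM with EV. The log2 fold change of NR2F1-AS1 between the constructs was 0.63 ± 0.16 (SE), with an adjusted p of 0.0336 by edgeR. The library kit keeps the strand, but the sources used here do not say if the counting used it, so reads of NR2F1 and NR2F1-AS1 may not have been told apart. TFAP2A, TBX3 and SNAI2 also have annotated genes on the opposite strand. Of these only TFAP2A-AS1 was in the table, at 1.28 CPM with NFIB ΔIDR, 1.15 CPM with NFIB WT and 1.84 CPM with EV.

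TFAP2A was the AP-2 factor that rose with NFIB ΔIDR relative to NFIB WT. It is one of the first regulators of neural crest induction and is needed for the face (chr6:10393419-10419892, minus strand). Its level was 25.6 and 28.9 CPM with NFIB ΔIDR, 15.2 and 17.4 CPM with NFIB WT, and 27.8 and 24.6 CPM with EV. The NFIB ΔIDR and EV libraries overlapped and the NFIB WT libraries lay below both. The constructs differed by a log2 fold change of 0.74 ± 0.14 (SE), with an adjusted p of 0.00945 by edgeR. TFAP2B, present at a far higher level per length, had 486 and 499 CPM with NFIB ΔIDR, 464 and 517 CPM with NFIB WT, and 530 and 546 CPM with EV, and its log2 fold change of 0.01 had a 95% interval of -0.18 to 0.19. The paired box genes PAX3 and PAX7, which mark neural crest and muscle progenitors, and PAX9 of teeth and vertebrae had log2 fold changes of 0.02, -0.12 and 0.02. PAX7 had 101 and 107 CPM with NFIB ΔIDR, 113 and 114 CPM with NFIB WT, and 123 and 118 CPM with EV.

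**Figure D3:**
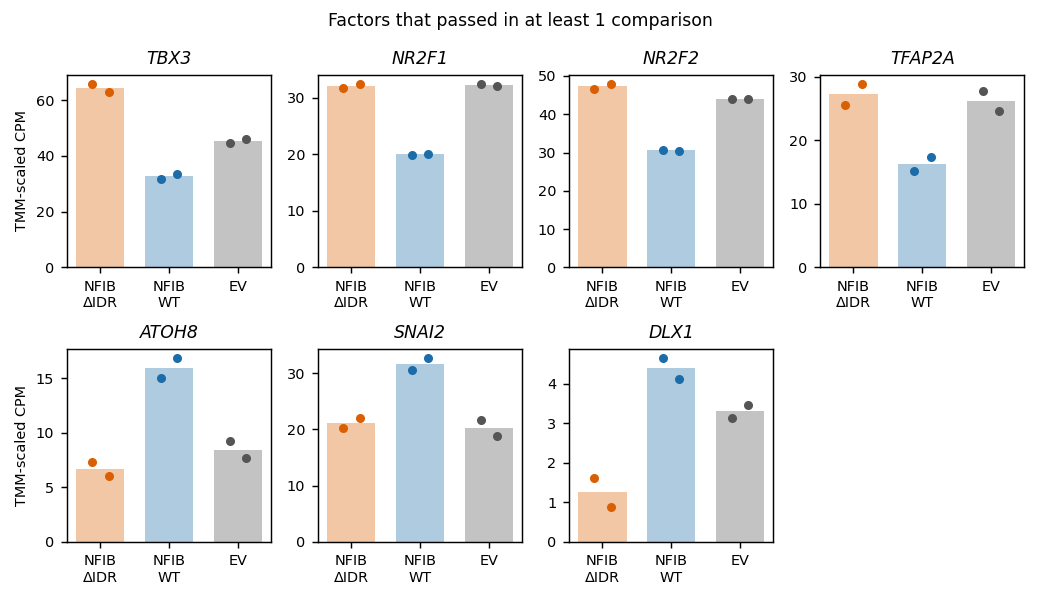
Level of the 7 factors that passed an adjusted p under 0.05 in at least 1 comparison, in TMM-scaled CPM. Bars are means of 2 libraries, points are libraries, and EV lies between the constructs for TBX3, NR2F2, ATOH8 and DLX1, while NFIB ΔIDR overlaps EV for NR2F1, TFAP2A and SNAI2.

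ATOH8 and DLX1 had the largest fold changes in the other direction. ATOH8, a basic helix-loop-helix factor related to atonal of Drosophila (chr2:85978467-86018506, plus strand), had 7.31 and 6.05 CPM with NFIB ΔIDR, 15 and 16.9 CPM with NFIB WT, and 9.28 and 7.65 CPM with EV. Both NFIB WT libraries were high and both NFIB ΔIDR libraries were below EV. The log2 fold change of NFIB ΔIDR over NFIB WT was -1.25 ± 0.18 (SE), with an adjusted p of 0.00312 by edgeR. DLX1, a distal-less homeobox gene of the first pharyngeal arch and forebrain (chr2:172949468-172954405, plus strand), was scarce, with 12 and 6 counts with NFIB ΔIDR, 31 and 32 with NFIB WT, and 23 and 29 with EV. These counts corresponded to 1.62 and 0.89 CPM with NFIB ΔIDR, 4.65 and 4.12 CPM with NFIB WT, and 3.14 and 3.46 CPM with EV, without overlap between any of the groups. The log2 fold change was -1.77 ± 0.34 (SE), with a 95% interval of -2.53 to -1.01 and an adjusted p of 0.0104 by edgeR.

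SNAI2, also known as Slug, a zinc finger repressor of CDH1 that acts in neural crest migration, was the EMT factor that fell with NFIB ΔIDR relative to NFIB WT. The gene lies at chr8:49830157-49834299 on the minus strand. It had 20.2 and 22 CPM with NFIB ΔIDR, 30.6 and 32.7 CPM with NFIB WT, and 21.7 and 18.9 CPM with EV. The NFIB ΔIDR and EV libraries overlapped, and both NFIB WT libraries lay above them. Between the constructs its log2 fold change was -0.59 ± 0.13 (SE), with an adjusted p of 0.0166 by edgeR. Its paralog SNAI1 had the opposite sign, at 5.68 and 6.79 CPM with NFIB ΔIDR, 3.75 and 3.86 CPM with NFIB WT, and 3.96 and 4.54 CPM with EV, and missed the threshold with an adjusted p of 0.081 by edgeR. TWIST1 had 259 and 247 CPM with NFIB ΔIDR, 189 and 218 CPM with NFIB WT, and 251 and 240 CPM with EV, with an adjusted p of 0.0566 by edgeR. The Zeb repressors ZEB1 and ZEB2 had log2 fold changes of 0.26 and -0.03.

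Among the mesenchymal homeobox genes, DLX1 alone passed the test at an adjusted p under 0.05. MSX1, a BMP-responsive factor of teeth and palate, had 22.7 and 19.8 CPM with NFIB ΔIDR, 9.75 and 16.4 CPM with NFIB WT, and 11.9 and 13.5 CPM with EV. Its NFIB ΔIDR libraries were above all others, and the NFIB WT libraries lay on either side of EV. Its log2 fold change between the constructs was 0.69 ± 0.20 (SE), with an adjusted p of 0.0571 by edgeR. It depended on the NFIB WT library used, at 0.38 without NFIB WT replicate 1, with an adjusted p of 0.109, and 1.12 without NFIB WT replicate 2, with an adjusted p of 3.09e-07, both by edgeR. MSX2, which acts in the skull, had 33.1 and 36.8 CPM with NFIB ΔIDR, 26.1 and 26.5 CPM with NFIB WT, and 32.5 and 27.3 CPM with EV. SIX4, a homeobox factor of muscle and nerve, had 14.5 and 13.1 CPM with NFIB ΔIDR, 23.4 and 16.7 CPM with NFIB WT, and 23.9 and 22.2 CPM with EV, so its NFIB ΔIDR libraries were the lowest of the 6. DLX5 and DLX6, which pattern the lower jaw, had log2 fold changes of -0.47 and 0.17, and their NFIB ΔIDR and NFIB WT libraries overlapped. PRRX1 had a log2 fold change of 0.28 and PRRX2 one of -0.04.

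In the family of HES, HEY and ATOH8, the Notch effectors HES1, HEY1 and HES4 did not pass the test. HES1 had 78.3 and 89.0 CPM with NFIB ΔIDR, 87.1 and 103 CPM with NFIB WT, and 81.2 and 85.2 CPM with EV, and its log2 fold change between the constructs was -0.18, with a 95% interval of -0.43 to 0.06. HEY1 had 17 and 9 counts with NFIB ΔIDR, 9 and 22 with NFIB WT, and 17 and 26 with EV, and HES4 had 20 and 16 counts with NFIB ΔIDR, 10 and 18 with NFIB WT, and 18 and 31 with EV. These counts allow only wide intervals, of -1.20 to 0.76 for HEY1 and -0.43 to 1.21 for HES4.

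The study called genes at a 1.5-fold change and P under 0.05, and this threshold, taken on unadjusted p, called 6 factors higher with NFIB ΔIDR than with NFIB WT (beside 5.69% of all genes) and 4 lower (beside 4.30%). SNAI1 and MSX1 joined the higher factors and TBX15 joined the lower ones. TBX15 had a log2 fold change of -1.24 with a 95% interval of -2.28 to -0.21, an unadjusted p of 0.0232 and an adjusted p of 0.118 by edgeR, on 12 counts or fewer in each library.

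Promoters are shown for 4 of the 7 factors that passed, since NFIB is a DNA-binding protein and its family recognises the palindrome TTGGCNNNNNGCCAA or a half-site. NR2F2 had no RefSeq record within 1000 bases of its deposited start, and no record was used for TBX3 and SNAI2. They run 250 bases before to 50 bases after the RefSeq start, written 5′ to 3′ along the gene on GRCh37, and capitals mark a half-site, TGGCA or its reverse complement TGCCA. The windows are chr2:85980864-85981163 on the plus strand for ATOH8, chr2:172949985-172950284 on the plus strand for DLX1, chr5:92918678-92918977 on the plus strand for NR2F1 and chr6:10419843-10420142 on the minus strand for TFAP2A. For ATOH8 and DLX1 the whole window lies inside the gene span given above, which begins further upstream.
ATOH8: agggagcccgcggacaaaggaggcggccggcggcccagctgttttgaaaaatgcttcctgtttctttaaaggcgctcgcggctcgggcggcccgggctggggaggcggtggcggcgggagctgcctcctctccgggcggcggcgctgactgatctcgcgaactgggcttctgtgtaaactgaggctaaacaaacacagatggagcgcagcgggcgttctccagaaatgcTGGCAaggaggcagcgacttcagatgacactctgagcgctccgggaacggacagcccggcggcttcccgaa
DLX1: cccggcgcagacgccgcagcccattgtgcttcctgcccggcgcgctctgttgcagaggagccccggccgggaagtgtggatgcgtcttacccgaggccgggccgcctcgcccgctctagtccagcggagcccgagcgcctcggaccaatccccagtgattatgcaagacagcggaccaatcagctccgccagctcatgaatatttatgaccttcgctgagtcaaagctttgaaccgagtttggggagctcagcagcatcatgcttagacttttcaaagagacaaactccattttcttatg
NR2F1: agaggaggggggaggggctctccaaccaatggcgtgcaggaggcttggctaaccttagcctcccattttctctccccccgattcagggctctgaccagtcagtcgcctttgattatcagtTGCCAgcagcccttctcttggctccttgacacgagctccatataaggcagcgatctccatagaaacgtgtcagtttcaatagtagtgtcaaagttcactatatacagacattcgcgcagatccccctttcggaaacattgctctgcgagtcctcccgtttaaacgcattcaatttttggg
TFAP2A: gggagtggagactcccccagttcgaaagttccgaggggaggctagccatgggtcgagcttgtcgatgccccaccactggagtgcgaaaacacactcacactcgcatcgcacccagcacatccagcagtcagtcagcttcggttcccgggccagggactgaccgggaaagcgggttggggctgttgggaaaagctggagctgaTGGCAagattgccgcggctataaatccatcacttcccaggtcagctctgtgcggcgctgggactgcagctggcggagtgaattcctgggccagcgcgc
The promoter of ATOH8, which was lower with NFIB ΔIDR, held 1 half-site, whose first base lies at -21 from the start. The promoters of NR2F1 and TFAP2A, which were higher, held 1 half-site each, at -130 and at -48. The promoter of DLX1, which was lower, held none in this window. Half-sites were common: 47.6% of all 35116 RefSeq promoters held at least 1 on either strand, as did 33 of the 66 promoters found for 39 of the 57 factors. The full palindrome, which overlaps the half-site in the letters TGGC and GCCA, occurred in 0.028% of all promoters and in none of the 66. A match in these letters is a description of the sequence and not a measured binding site.

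The comparison of NFIB WT with EV asks what the full-length factor changes. Of the 43 factors 2 passed (beside 0.615% of all genes): ATOH8 was higher at an adjusted p under 0.05 (beside 0.452% of all genes) and NR2F1 was lower (beside 0.163% of all genes). The log2 fold change of ATOH8, whose libraries had 15 and 16.9 CPM with NFIB WT and 9.28 and 7.65 CPM with EV, was 0.92 ± 0.17 (SE), with an adjusted p of 0.0419 by edgeR. NR2F1 had a log2 fold change of -0.69 ± 0.11 (SE), with an adjusted p of 0.0253 by edgeR. Both calls were near the threshold: in DESeq2 and in a fit of these 2 groups alone neither factor passed, and the calls were also lost without either EV library or without either NFIB ΔIDR library, with log2 fold changes of 0.79 to 1.07 for ATOH8 and -0.70 to -0.68 for NR2F1 over all alternatives. The median log2 fold change of the 43 factors was -0.04, against 0.004 for all genes.

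Several factors just missed the threshold with NFIB WT. SNAI2 had a log2 fold change over EV of 0.65 ± 0.13 (SE), with an adjusted p of 0.0513 by edgeR. NR2F2 had -0.52 ± 0.10 (SE), with an adjusted p of 0.0542, and TFAP2A had -0.68 ± 0.14 (SE), with an adjusted p of 0.0602, both by edgeR. ZEB1 had 27.0 and 29.0 CPM with NFIB WT and 38.1 and 43.6 CPM with EV, with a log2 fold change of -0.55 and an adjusted p of 0.0747 by edgeR. TBX3 had a log2 fold change of -0.47, with an adjusted p of 0.0767, and PRRX1 had -0.40, with an adjusted p of 0.093, both by edgeR. PRRX1 had 50.8 and 49.1 CPM with NFIB WT and 66.2 and 65.7 CPM with EV. In all 6 of these genes the NFIB WT libraries did not overlap those of EV, which was so for 12 factors that were higher (27.9%, beside 21.7% of all genes) and 15 that were lower (34.9%, beside 21.2%). At the threshold of the study, 4 factors were higher (beside 2.13% of all genes), namely ATOH8, FOXC1, SNAI2 and TBX15, and 2 were lower (beside 1.75%), NR2F1 and TFAP2A. FOXC1, a forkhead factor of eye and skull mesenchyme, had 14 and 16 counts with NFIB WT and 7 and 9 with EV, and its log2 fold change of 1.02 had a 95% interval of 0.14 to 1.89 and an adjusted p of 0.306 by edgeR.

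The comparison of NFIB ΔIDR with EV asks what remains without the disordered region. Of the 43 factors 1 passed (beside 0.652% of all genes): TBX3 was higher at an adjusted p under 0.05 (beside 0.296% of all genes), with a log2 fold change of 0.51 ± 0.10 (SE) and an adjusted p of 0.0489 by edgeR. The call was lost in DESeq2 and without either NFIB ΔIDR or either EV library, at log2 fold changes of 0.47 to 0.54 over all alternatives. In the main edgeR fit 0 of the 43 factors were lower (beside 0.356% of all genes), as in DESeq2. In the main fit 5 were lower at an unadjusted p under 0.05 (beside 7.42% of all genes): DLX1, SIX4, SOX11, ZEB1 and PAX7. An edgeR fit of NFIB ΔIDR and EV alone called the same 5 lower, and MSX1 higher beside TBX3. In that fit 1883 genes passed, against 88 in the main fit. At the threshold of the study, MSX1 was higher (beside 3.09% of all genes), and DLX1 and SIX4 were lower (beside 1.68% of all genes). TBX3, at a 1.42-fold change, did not reach that threshold. MSX1 had a log2 fold change of 0.74 ± 0.20 (SE), DLX1 of -1.37 ± 0.36 (SE) and SIX4 of -0.73 ± 0.17 (SE), with adjusted p values of 0.122, 0.11 and 0.0833 by edgeR. The NFIB ΔIDR libraries did not overlap those of EV in 9 factors that were higher (20.9%, beside 26.2% of all genes) and 12 that were lower (27.9%, beside 27.1%). The median log2 fold change of the 43 factors was -0.02, against 0.001 for all genes.

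**Figure D4:**
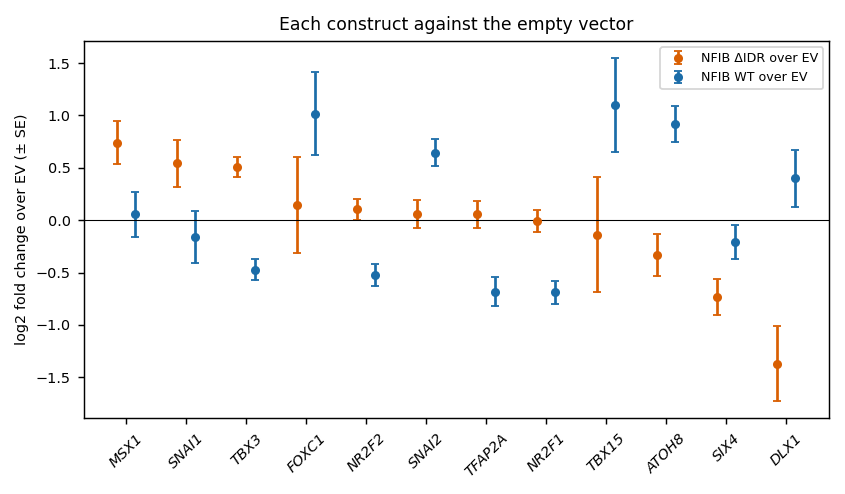
log2 fold change over EV, with its SE, for the 12 factors that passed an adjusted p under 0.05 or the threshold of the study in any comparison, with NFIB ΔIDR and NFIB WT side by side. NR2F1, TFAP2A and SNAI2 lie near 0 with NFIB ΔIDR, at -0.01, 0.06 and 0.06.

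Both of these comparisons use the same EV libraries, so their values are placed side by side and are not independent. NR2F1 had a log2 fold change of -0.01 with NFIB ΔIDR and -0.69 with NFIB WT. TFAP2A had 0.06 with NFIB ΔIDR and -0.68 with NFIB WT, and SNAI2 had 0.06 with NFIB ΔIDR and 0.65 with NFIB WT. The 3 genes thus differed between the constructs while their NFIB ΔIDR libraries overlapped those of EV. For TBX3, 0.51 with NFIB ΔIDR stood against -0.47 with NFIB WT, with the libraries of the constructs on opposite sides of EV. NR2F2 had the same order of libraries, at 0.10 with NFIB ΔIDR and -0.52 with NFIB WT. ATOH8 had -0.33 with NFIB ΔIDR and 0.92 with NFIB WT, and DLX1 had -1.37 with NFIB ΔIDR and 0.40 with NFIB WT, with the NFIB ΔIDR libraries below EV and the NFIB WT libraries above it. Whether a construct differed from EV was tested for each separately, and of these values only TBX3 with NFIB ΔIDR and NR2F1 and ATOH8 with NFIB WT passed an adjusted p under 0.05.

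The SOX, RUNX, forkhead and organ mesenchyme factors missed an adjusted p under 0.05 in all 3 comparisons, in the main edgeR fit and in DESeq2. In the main fit SOX11, SOX9, RUNX2 and TCF4 reached an unadjusted p under 0.05 for NFIB ΔIDR over NFIB WT. Apart from runs that left out a library, some alternative edgeR fits called SOX11 lower. These were no filter and a replicate block for NFIB ΔIDR over NFIB WT, and no filter and 2 groups for NFIB ΔIDR over EV. SOX11, SOX9 and TCF4 were also called in some runs without an NFIB WT library, which leave that group with a single library. Of the 5 tested SOX factors, SOX11 had 305 and 264 CPM with NFIB ΔIDR, 417 and 328 CPM with NFIB WT, and 367 and 341 CPM with EV, so the NFIB ΔIDR libraries were the lowest. Its log2 fold change between the constructs was -0.39 ± 0.12 (SE), with an adjusted p of 0.0609 by edgeR. SOX4 had 140 and 116 CPM with NFIB ΔIDR, 143 and 126 CPM with NFIB WT, and 147 and 136 CPM with EV, and its groups overlapped. The family's median log2 fold change was -0.39 for NFIB ΔIDR over NFIB WT and 0.07 for NFIB WT over EV. The 2 tested RUNX factors, regulators of bone and blood, ranged between 0.05 and 0.54 for NFIB ΔIDR over NFIB WT, and the 4 tested forkhead factors between -0.87 and 0.49. The 4 tested factors of organ mesenchyme ranged between -0.27 and 0.28, and TCF4 among them had 149 and 142 CPM with NFIB ΔIDR, 167 and 174 CPM with NFIB WT, and 156 and 149 CPM with EV.

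Genes downstream or around these factors were described by counts, with the background of 5.19% higher and 5.52% lower for NFIB ΔIDR over NFIB WT. Of 17 tested effectors of EMT, 3 were higher and 2 lower, with a median log2 fold change of 0.21. FN1, the matrix protein fibronectin, had 568 and 609 CPM with NFIB ΔIDR, 400 and 463 CPM with NFIB WT, and 347 and 371 CPM with EV, and was higher with NFIB ΔIDR than with EV by a log2 fold change of 0.71 ± 0.09 (SE), with an adjusted p of 0.0105 by edgeR. The epithelial keratin KRT8 had 11.4 and 9.89 CPM with NFIB ΔIDR, 3.0 and 4.64 CPM with NFIB WT, and 6.42 and 5.85 CPM with EV. ESRP1, an epithelial splicing regulator, had 10.0 and 8.86 CPM with NFIB ΔIDR, 3.15 and 3.22 CPM with NFIB WT, and 4.64 and 2.75 CPM with EV. Both were higher with NFIB ΔIDR than with NFIB WT, by log2 fold changes of 1.46 and 1.56 with adjusted p values of 0.00424 and 0.00511 by edgeR. TGFBR1, a receptor for TGF-beta, was lower, at 26.8 and 22.6 CPM with NFIB ΔIDR, 47.8 and 35 CPM with NFIB WT, and 27.8 and 30.4 CPM with EV.

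BMP signals induce MSX and ID genes, and of 20 tested BMP and ID genes 2 were higher and 3 lower with NFIB ΔIDR than with NFIB WT, with a median log2 fold change of -0.20. The ligand BMP2 had 40.0 and 42.2 CPM with NFIB ΔIDR, 19.4 and 14.8 CPM with NFIB WT, and 25.9 and 27.0 CPM with EV. The ligand BMP7 had 2.71 and 1.77 CPM with NFIB ΔIDR, 9.0 and 8.50 CPM with NFIB WT, and 7.37 and 5.02 CPM with EV. The 2 ligands lay on opposite sides of EV, with log2 fold changes between the constructs of 1.27 ± 0.14 and -1.94 ± 0.29 (SE) and adjusted p values of 0.000813 and 0.00332 by edgeR. ID4 and ID2, which block bHLH factors by forming inactive dimers, were lower, by log2 fold changes of -0.69 and -0.33.

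Of 16 tested osteochondral genes, 5 were higher and 2 lower, with a median of 0.32. The bone phosphatase ALPL was lower, at 40.7 and 41.3 CPM with NFIB ΔIDR, 67.3 and 78.6 CPM with NFIB WT, and 56.2 and 65.4 CPM with EV. COL1A1, a chain of type I collagen, was higher, at 7.85 and 8.27 CPM with NFIB ΔIDR, 3.15 and 4.38 CPM with NFIB WT, and 5.19 and 5.5 CPM with EV. COL11A1, a cartilage collagen, was higher at low levels, with 2.30 and 2.36 CPM with NFIB ΔIDR, 0 and 0.39 CPM with NFIB WT, and 0.68 and 0.36 CPM with EV. Of 24 tested genes of migratory neural crest, 4 were higher and 2 lower, with a median of 0.14. The adhesion protein CDH6, expressed in early neural crest, had 8.12 and 6.94 CPM with NFIB ΔIDR, 2.4 and 2.96 CPM with NFIB WT, and 6.96 and 8.72 CPM with EV. It was lower with NFIB WT than with EV by a log2 fold change of -1.54 ± 0.25 (SE), with an adjusted p of 0.0253 by edgeR. The receptor PDGFRA had 4.6 and 5.17 CPM with NFIB ΔIDR, 1.5 and 1.03 CPM with NFIB WT, and 2.05 and 2.75 CPM with EV, and its libraries did not overlap between any of the groups.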

How the data were processed

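RNA-seq libraries of SKNMC cells (2 per group) were made from total RNA with the CORALL kit. The authors converted reads with CASAVA 2.19, aligned them to hg19 with STAR 2.4.0h, used featureCounts on RefSeq genes, and deposited the counts unnormalized. The sources used here do not give the settings for strand or molecular identifiers.

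Counts were tested with edgeR 4.0.16 (limma 3.58.1, R 4.3.3): TMM, filterByExpr (minimum count 10, minimum total 15), 1 quasi-likelihood fit over 6 libraries with a mean per group, and Benjamini-Hochberg adjustment over 13501 genes. DESeq2 1.42.0 was an alternative, as were RLE scaling, no filter, fits of 2 groups, a replicate block, the threshold of the study and leaving out each library. DESeq2 with the threshold of the study was added after seeing the data. Intervals are 95%. With 2 libraries per group, p values weigh each difference against the variation within groups. That variation was pooled over the 6 libraries and shared across genes (common biological coefficient of variation 0.0776). It covers only these libraries, and depth limits factors of few counts. Steps were tested on simulated data. There edgeR recovered 52.2% of 1.5-fold changes for NFIB ΔIDR over NFIB WT, 49.3% for NFIB WT over EV and 38.8% for NFIB ΔIDR over EV. DESeq2 recovered 34.3%, 31.3% and 25.4% in the same order. A factor that did not pass may thus still differ by such a fold.

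The factors and gene lists were chosen with earlier results of these data known. Named factors were NFIB, those past either threshold, the 10 most abundant per length with EV, the families of factors that passed, and those at 3 counts or fewer. Up to 4 genes a list were named, those that passed with the smallest p, and 1 such gene is not reported here. DLX2, MEOX2, SOX5 and OSR1 were named to account for every factor. Gene coordinates are from GENCODE lifted to GRCh37, since the deposited coordinates are windows around start sites. Promoters are from RefSeq, with the record nearest the deposited start and within 1000 bases of it. Figures used matplotlib 3.10.9 in Python 3.11.15.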

Additional observations from a re-analysis of the deposited data

Results flagged for a closer look

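For 7 factors the effect of the 2 constructs differed by a direct test, NFIB ΔIDR over NFIB WT, at an adjusted p under 0.05 by edgeR. The log2 fold changes were 0.98 for TBX3, 0.68 for NR2F1, 0.63 for NR2F2 and 0.74 for TFAP2A, all higher with NFIB ΔIDR. They were -1.25 for ATOH8, -1.77 for DLX1 and -0.59 for SNAI2, all lower with NFIB ΔIDR. In each of the 7, both NFIB ΔIDR libraries lay on the same side of both NFIB WT libraries. The 7 were picked by a test on these same libraries, so this separation adds no support. Among all genes tested, 27.8% were higher without overlap and 27.6% were lower without overlap. TBX3 and NR2F2 were above EV in both NFIB ΔIDR libraries and below EV in both NFIB WT libraries. ATOH8 and DLX1 were below EV in both NFIB ΔIDR libraries and above EV in both NFIB WT libraries. Of these differences from EV, only TBX3 with NFIB ΔIDR and ATOH8 with NFIB WT passed an adjusted p under 0.05. The share of all genes with EV between the constructs was not counted. NFIB RNA was 2.26-fold higher with NFIB ΔIDR than with NFIB WT, and the construct and its level cannot be told apart.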

How the results depend on the processing

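No fold change of NFIB, or of a factor in a comparison where it passed either threshold, changed sign in any alternative run, and other factors were not followed singly. RLE scaling changed no call of a factor. TBX3 between the constructs kept its call throughout, and 1446 genes passed there. That count was 726 in DESeq2, 2280 with no filter, 680 with 2 groups and 935 in DESeq2 with the threshold of the study. The 4 higher factors became 7 with no filter, and the 3 lower became 5 with no filter. For NFIB WT over EV, 83 genes passed, and this was 541 with no filter, 13 with 2 groups, 524 with the threshold of the study and 251 with that threshold in DESeq2. The 1 higher factor became 0 in DESeq2 and with 2 groups, 2 with no filter, 4 with the threshold of the study and 2 with it in DESeq2. The 1 lower factor became 0 in DESeq2 and with 2 groups, 6 with no filter, and 2 with the threshold of the study in either tool. For NFIB ΔIDR over EV, 88 genes passed, and this was 550 with no filter, 1883 with 2 groups, 644 with the threshold of the study and 301 with it in DESeq2. The 1 higher factor became 0 in DESeq2, and 2 with no filter or 2 groups. With the threshold of the study it was MSX1 in place of TBX3, in either tool. The 0 lower factors became 3 with no filter, 5 with 2 groups, and 2 with the threshold of the study in either tool.

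Leaving out 1 library at a time, 109 to 4405 genes passed for NFIB ΔIDR over NFIB WT, with 1 to 7 factors higher and 0 to 8 lower. For NFIB WT over EV, 9 to 3051 genes passed, with 0 to 4 factors higher and 0 to 8 lower, and for NFIB ΔIDR over EV, 4 to 1853 genes, with 0 to 2 higher and 0 to 5 lower. The highest counts, 4405, 3051 and 1853, were those without NFIB WT replicate 2, and an arm left with 1 library is assumed to vary like the others. The cause was not tested.

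The replicate numbers are labels only, and the correlations of deviations between same-numbered libraries were 0.05 for NFIB ΔIDR and NFIB WT, 0.14 for NFIB WT and EV, and 0.01 for NFIB ΔIDR and EV. With a replicate block, 2092 genes passed for NFIB ΔIDR over NFIB WT and 5 factors were lower, with SIX4 and SOX11 added, and MSX1 and TWIST1 joined the higher ones. The block gave 188 genes for NFIB WT over EV, with 2 factors higher and 4 lower (SNAI2, NR2F2, TFAP2A and ZEB1 added), and 241 genes for NFIB ΔIDR over EV, with 1 factor lower, SIX4. DESeq2 gave no adjusted p for TBX15 and FOXC1, which are limited by their counts.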

Other observations

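Retinoic acid patterns the neural crest and the limb, and of 17 tested genes of its pathway 1 was higher and 4 lower for NFIB ΔIDR over NFIB WT, beside 5.19% and 5.52% of all genes, with a median log2 fold change of -0.13. CYP26B1, which degrades retinoic acid, had 19.4 and 19.2 CPM with NFIB ΔIDR, 38.0 and 39.4 CPM with NFIB WT, and 24.3 and 26.8 CPM with EV. Its log2 fold change was -1.0 ± 0.12 (SE) for NFIB ΔIDR over NFIB WT and 0.60 ± 0.11 (SE) for NFIB WT over EV, with adjusted p values of 0.00115 and 0.0439 by edgeR. The retinol dehydrogenase RDH10 was also lower with NFIB ΔIDR than with NFIB WT, by a log2 fold change of -0.56. ALDH1A1, which makes retinoic acid, was higher, at 23.8 and 22.1 CPM with NFIB ΔIDR, 14.2 and 14.0 CPM with NFIB WT, and 12.6 and 14.3 CPM with EV.

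Of 26 tested Notch genes, 3 were higher and 2 lower for NFIB ΔIDR over NFIB WT, with a median of -0.08. The receptor NOTCH2 had 141 and 132 CPM with NFIB ΔIDR, 191 and 163 CPM with NFIB WT, and 155 and 147 CPM with EV, and was lower by a log2 fold change of -0.37. The corepressor SPEN was higher by 0.67, and its NFIB WT libraries had 82.6 and 131 CPM. Of 49 tested relatives from the same factor families, 4 were higher and 1 lower, with a median of -0.06. HAND1, a bHLH relative of HAND2 in heart and neural crest, had 5.95 and 8.41 CPM with NFIB ΔIDR, 3.0 and 3.73 CPM with NFIB WT, and 4.91 and 5.74 CPM with EV. CBFB, the partner subunit of the RUNX factors, was lower by a log2 fold change of -0.54, at 120 and 121 CPM with NFIB ΔIDR, 201 and 149 CPM with NFIB WT, and 148 and 136 CPM with EV. Of the migratory neural crest genes, the receptor KIT was lower with NFIB ΔIDR than with EV, at 111 and 118 CPM with NFIB ΔIDR and 154 and 160 CPM with EV, with an adjusted p of 0.0489 by edgeR.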
